A study of Homo sapiens with 6 samples.

Results

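Intronic poly(A) 3′-seq peaks that lie within 2 kb of a gene's start are candidates for transcripts that were cleaved and polyadenylated soon after transcription began. A peak was counted here when its summit lay 0 to 2 kb downstream of the canonical start of a protein-coding gene over 10 kb long, in an intron, outside every annotated exon and outside the window from 200 bp before to 600 bp after every annotated transcript end. Peaks were left out when the gene strand held 18 or more A in any 25 bases within 50 bp past the peak's 3′ edge, the edge nearest the end of the transcript. These conditions gave 3321 peaks in 2810 genes (18.9% of such genes), 1.66% of the 200023 peaks in the deposited list. They are called early intronic peaks below.

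The samples of the series are IMR-32 cells, an established human neuroblastoma line with amplified MYCN, and the peak list was assumed to come from their 6 libraries. The methods state a merge of all samples without naming them, and the study also made 3′-seq libraries of Kelly cells, Kelly E9R cells and cells expressing shRNAs, whose reads may be in the list. The IMR-32 cells received DMSO (the solvent, 2 libraries), 400 nM THZ531 for 2 h (2 libraries) or 400 nM THZ531 for 6 h (2 libraries). THZ531 is a covalent inhibitor of CDK12 and CDK13, kinases that phosphorylate the tail of RNA polymerase II, and all groups of this series are the same line with no allele changed. Reads were merged before peaks were called, so no value below belongs to a treatment or a replicate, DMSO and THZ531 cannot be compared, and no peak has a replicate error. The list has no strand, so the strand was taken from the gene. Each of 12 neuroblastoma and sympathetic lineage markers had a peak at a transcript end, with 16 reads (LIN28B) to 123 reads (PHOX2A) at the tallest. Of 5 markers of blood, epithelial, stromal and endothelial cells, PTPRC and PECAM1 had none and the other 3 had 6 to 15 reads.

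Most messenger RNAs end where the cleavage and polyadenylation complex recognises a poly(A) signal, a hexamer such as AATAAA that usually lies a short way upstream of the cut, together with sequence rich in U or in G and U downstream of it. Introns hold many such hexamers by chance. The U1 snRNP, which pairs with 5′ splice sites, is known to keep the complex from using them, and CDK12 is known for keeping transcription going through long genes. In 3′-seq, an oligo(dT) primer can also pair with A-rich stretches inside a transcript.

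The sequences around 7 early intronic peaks are given below, with 70 bases up to the 3′ edge and the 30 bases past it. They are on the gene strand of GRCh38, and the bases shown up to the edge of the TOP2A peak lie in an exon. The first 3 were among the 4 peaks with the most reads that had a hexamer starting 10 to 35 bp before the edge. The peaks in CPSF6 and BPTF follow because they had AATAAA at that distance and were among the 3 tallest of a gene list described below. They were chosen after their values were seen. The last 2, in LRATD1 and EDEM3, are the tallest peaks of all and had none of the 12 hexamers in the 100 bp before the edge. Capitals mark a hexamer that starts 10 to 35 bp before the edge.

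TOP2A: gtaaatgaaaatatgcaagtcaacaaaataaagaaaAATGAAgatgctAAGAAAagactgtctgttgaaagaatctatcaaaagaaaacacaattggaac
IGF2BP1: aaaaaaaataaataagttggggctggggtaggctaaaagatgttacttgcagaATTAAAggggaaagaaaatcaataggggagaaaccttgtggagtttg
GNAS: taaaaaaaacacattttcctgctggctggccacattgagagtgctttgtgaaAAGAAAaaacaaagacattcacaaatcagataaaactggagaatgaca
CPSF6: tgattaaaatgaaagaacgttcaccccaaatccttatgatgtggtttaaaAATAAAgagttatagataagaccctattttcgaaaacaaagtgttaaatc
BPTF: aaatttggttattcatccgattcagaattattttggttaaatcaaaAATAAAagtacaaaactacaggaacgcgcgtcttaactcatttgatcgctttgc
LRATD1: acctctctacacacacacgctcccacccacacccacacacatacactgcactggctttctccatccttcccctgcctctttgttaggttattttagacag
EDEM3: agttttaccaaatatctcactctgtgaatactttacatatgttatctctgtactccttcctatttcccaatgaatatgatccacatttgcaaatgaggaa

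The stretches lie at chr17:40416793-40416892 (TOP2A, minus strand), chr17:48999359-48999458 (IGF2BP1, plus), chr20:58892924-58893023 (GNAS, plus), chr12:69240584-69240683 (CPSF6, plus), chr17:67827040-67827139 (BPTF, plus), chr2:14633042-14633141 (LRATD1, plus) and chr1:184752856-184752955 (EDEM3, minus). The hexamer began 21 bp before the edge in TOP2A (its second, AAGAAA), 16 bp in IGF2BP1, 17 bp in GNAS, 19 bp in CPSF6 and 23 bp in BPTF. The TOP2A peak has its summit 870 bp into an intron of 875 bp. The 70 bases shown up to its 3′ edge, with both marked hexamers, thus lie in exon 2 of the canonical transcript. Of all early intronic peaks, 235 (7.08%) reached an exon or a transcript-end window and 56 (1.69%) had the 3′ edge in an exon of the canonical transcript.

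Early intronic peaks were about as tall as the intronic peaks that followed them. Height is given as reads at the summit, the number of extended reads over the highest point of the peak, recovered from the deposited fold enrichment and −log10 p. If the peak caller's default was kept, reads with the same start counted once, so that height counts distinct read starts near the summit. Height then has a ceiling (the highest peak in the list has 200), and tall peaks are understated more than low ones. It would then not measure how often a site was used. The median was 15 reads (lower quartile 11, upper quartile 21, highest 81), over a median local background of 1.79 reads. The 13522 intronic peaks 2 to 10 kb from the start also had a median of 15 reads (quartiles 11 and 21, highest 98). Further than 10 kb, 58489 intronic peaks had a median of 9 reads (quartiles 6 and 12), and 24230 peaks at annotated ends of these genes had 17 (quartiles 11 and 26, highest 123). Median background was 1.91 reads at 2 to 10 kb, 0.55 beyond 10 kb and 1.15 at transcript ends. The peak caller sets peaks against this background, and its part in the heights was not tested. At least 30 reads were reached by 257 early intronic peaks (7.74%) and at least 50 reads by 26 (0.783%), while 268 (8.07%) had under 8. A −log10 q of 5 or more was met by 2464 (74.2%), and one of 20 or more by 150.

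**Figure D1:**
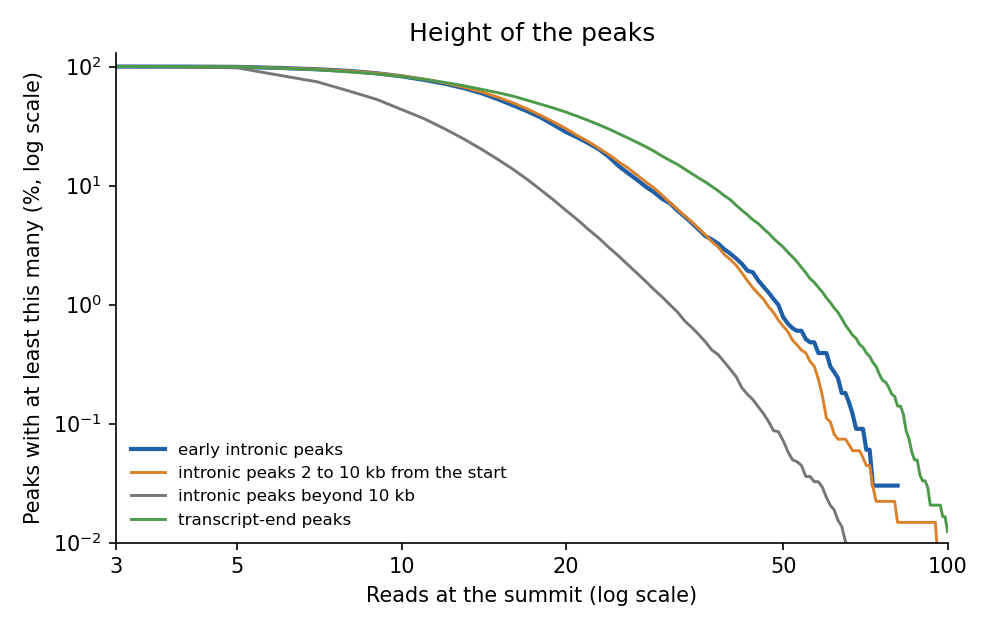
Share of peaks (vertical axis, percent, log scale) with at least the number of reads at the summit given on the horizontal axis (log scale), for early intronic peaks, intronic peaks 2 to 10 kb and beyond 10 kb from the start, and peaks at annotated transcript ends. The curves of early intronic peaks and of those 2 to 10 kb from the start lie together, both with a median of 15 reads, and peaks beyond 10 kb (median 9) lie below them. Median local background was 1.79 reads at early intronic peaks and 0.55 beyond 10 kb.

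Few peaks lay close to the start. Density, the number of peaks per Mb of intronic sequence that met the same position limits, was 36.6 per Mb (exact Poisson interval 30.2 to 44.1, 113 peaks) in the first 500 bp and 123 per Mb (114 to 133, 682 peaks) from 500 to 1000 bp. It was 195 per Mb (184 to 207, 1168 peaks) from 1000 to 1500 bp and 221 per Mb (209 to 233, 1355 peaks) from 1500 to 2000 bp. Of the 500 bp bins up to 10 kb, the one from 1500 to 2000 bp was the densest. Its interval overlapped that of the next bin, which had 215 per Mb (203 to 227), and the last bin before 10 kb had 91.9 per Mb (84.2 to 100.1).

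The window from 0 to 2 kb was less dense than the 2 kb that followed it, and denser than 2 to 10 kb taken as a whole. It had 160 peaks per Mb (155 to 166, on 20.7 Mb), against 200.5 per Mb (194.9 to 206.1) from 2 to 4 kb and 140 per Mb (137 to 142) from 2 to 10 kb. The ratio of 0 to 2 kb over 2 to 10 kb was 1.14 (95% interval 1.10 to 1.19), and over 2 to 4 kb it was 0.798 (0.763 to 0.834). Which side of 1 the ratio falls on thus depends on the bin compared. Peaks with a hexamer 10 to 35 bp before the edge followed the same course, with 10.7 per Mb in the first 500 bp, 68.6 from 1500 to 2000 bp and 39.8 in the last bin before 10 kb. Intervals here and below are 95% intervals that cover counting error alone.

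**Figure D2:**
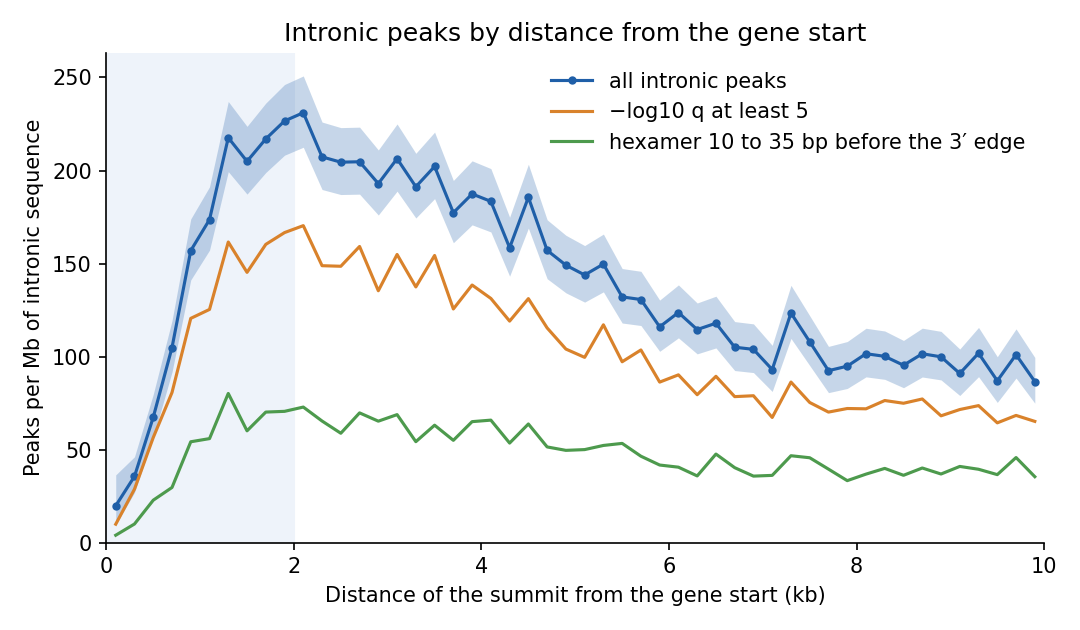
Intronic peaks per Mb of eligible intronic sequence (vertical axis) in 200 bp bins of distance from the gene start (horizontal axis, kb), for all peaks with an exact 95% Poisson band, for peaks with −log10 q of at least 5, and for peaks with a hexamer 10 to 35 bp before the 3′ edge. The shaded part is the window of the early intronic peaks, and all 3 curves climb through most of it and come down beyond it.

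Base composition changed over the same stretch. Adjoining 100 bp windows of eligible intronic sequence had 58.9% ± 15.0 GC (SD over windows) in the first 500 bp and 44.2% ± 11.1 from 1500 to 2000 bp, and the number of CpG per window was 5.62 and 1.47. The 100 bp before the edge of early intronic peaks had 42.5% ± 10.2 GC (SD over peaks). The share of those windows with any of the 12 hexamers on the gene strand was 16.1% in the first 500 bp and 35.5% from 1500 to 2000 bp. The part of base composition in the density was not tested.

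Most early intronic peaks lay in first introns. Intron 1 of the canonical transcript held 2996 (90.2%), intron 2 held 289 (8.70%) and later introns 32, and 4 lay in no intron of that transcript. Intron 1 also made up 90.1% of the eligible bases within 2 kb. In intron 1 the summit was a median of 1106 bp from the 5′ splice site (quartiles 735 and 1443), and the intron's median length was 8069.5 bp (quartiles 3479 and 21655). Over all introns, 53 summits (1.60%) were under 100 bp from the splice site and 506 (15.2%) under 500 bp.

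Annotation gives many of these genes more than the canonical start. At 2600 peaks (78.3%), another annotated start of the same gene lay between the canonical start and the summit. A gene on the opposite strand covered the summit at 178 peaks (5.36%), whose strand is therefore uncertain, and 892 peaks (26.9%) lay in genes with an opposite-strand gene start in the 1 kb upstream. How much of all eligible sequence has another start before it, or an opposite-strand start nearby, was not computed. The 78.3% and 26.9% are thus not read as traits of these peaks. The share with a hexamer 10 to 35 bp before the edge was 31.5% (25.1 to 38.6) where genes of both strands met and 32.4% (30.7 to 34.0) elsewhere. It was 30.4% (27.1 to 33.8) at the 721 peaks with no other start in between.

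A poly(A) signal hexamer stood near the edge of slightly fewer early intronic peaks than intronic peaks further in, and of far fewer than transcript-end peaks. The 12 hexamers listed in the study were looked for in 100 bp before the 3′ edge. They are AATAAA and the variants that differ at its base 1 (CATAAA or GATAAA or TATAAA), base 2 (ACTAAA or AGTAAA or ATTAAA), base 3 (AAGAAA), base 4 (AATGAA) or base 5 (AATACA or AATAGA or AATATA). Neighbouring matches may share bases. At least 1 hexamer was present at 1802 early intronic peaks (54.3%, Wilson interval 52.6 to 55.9), at 57.6% (56.7 to 58.4) of peaks 2 to 10 kb from the start, at 65.9% (65.5 to 66.3) beyond 10 kb and at 82.5% (82.0 to 83.0) of transcript-end peaks. Of all 100 bp windows of eligible intronic sequence within 2 kb, 29.9% (29.7 to 30.1) held a hexamer.

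A hexamer starting 10 to 35 bp before the edge was present at 1073 early intronic peaks (32.3%, 30.7 to 33.9). The 100 bp of the opposite strand, ending at the peak's other edge, had one at 14.1% (12.9 to 15.3), a difference of 18.2 percentage points (Newcombe interval 16.3 to 20.2). Windows within 2 kb had one at that place in 10.5% (10.4 to 10.6) on the gene strand and in 13.1% (12.9 to 13.2) on the opposite strand. The gene strand of early intronic peaks thus stood above its opposite strand and above the windows by more than counting error. These windows were not matched to the peaks on A content, and shares by A count are given below.

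At 2 to 10 kb the share was 35.1% (34.3 to 35.9), so that early minus later was −2.81 points (−4.58 to −1.01). Windows there also held more, at 12.8% (12.8 to 12.9). Transcript-end peaks had one in 66.5% (66.0 to 67.1), a difference of 34.2 points (32.5 to 35.9). Within the first 2 kb the share was 29.2% (113 peaks), 32.4%, 33.9% and 31.1% in successive 500 bp bins.

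**Figure D3:**
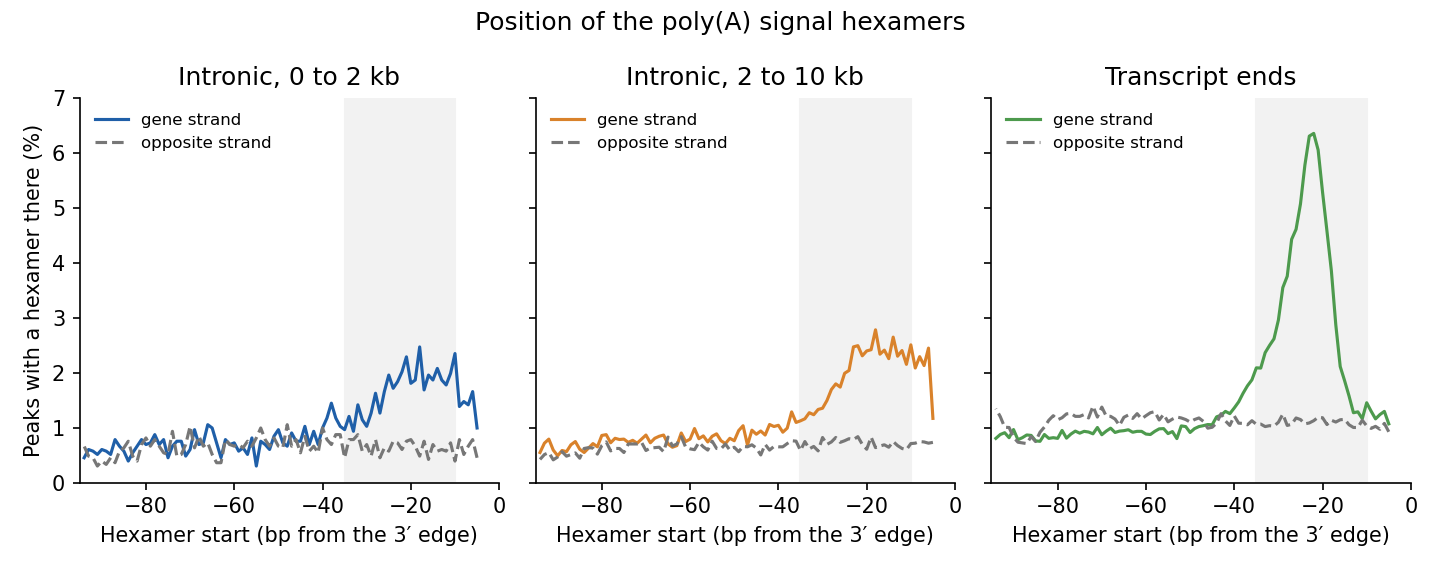
Share of peaks (vertical axis, percent) with any of the 12 hexamers starting at each base before the 3′ edge (horizontal axis, bp), on the gene strand (solid) and on the opposite strand before the other edge (dashed), for intronic peaks within 2 kb, intronic peaks 2 to 10 kb from the start and transcript-end peaks. The grey band marks 10 to 35 bp. For early intronic peaks the gene strand was highest at 18 bp (2.47%), and at 2 to 10 kb also at 18 bp (2.78%). These 2 curves are broad, with 2.35% at 10 bp for early intronic peaks and 2.45% at 6 bp at 2 to 10 kb. Transcript ends had 1.45% at 10 bp and 6.36% at 22 bp. The dashed lines show no rise there.

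AATAAA was the most frequent of the 12. It started 10 to 35 bp before the edge of 533 early intronic peaks (16.05%), against 3.43% on the opposite strand, 17.7% at 2 to 10 kb and 40% at transcript ends. ATTAAA was at that place in 154 (4.64%, opposite strand 1.84%), AAGAAA in 124 (3.73%, opposite 2.53%) and AGTAAA in 91 (2.74%, opposite 0.933%). ACTAAA was about as frequent on both strands, at 1.11% and 1.05%. Counted over the peaks, 917 (27.6%) had a hexamer 10 to 35 bp before the edge on the gene strand alone, 311 (9.36%) on the opposite strand alone, 156 (4.70%) on both and 1937 (58.3%) on neither. No hexamer anywhere in the 100 bp was found at 1519 peaks (45.7%).

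Height differed little between peaks with and without a hexamer. Early intronic peaks with a hexamer 10 to 35 bp before the edge and those without had the same median of 15 reads. The share with one was 29.5% of the 572 peaks with 3 to 9 reads, 31.4% of 1814 with 10 to 19, 35.8% of 678 with 20 to 29 and 35.4% of 257 with 30 or more. By −log10 q it was 24.04% (21.30 to 27.01) below 5, 35.2% (33.3 to 37.1) at 5 or more and 38.7% (31.2 to 46.7) at 20 or more.

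The sequence past the edge was rich in A even under the limit of 18. The 30 bases after the edge were 37.1% ± 15.0 A and 24.9% ± 11.8 T (SD over peaks) at early intronic peaks, 39.2% ± 14.7 A and 25.01% ± 11.49 T at 2 to 10 kb, and 28.8% ± 14.7 A and 34.5% ± 13.8 T at transcript ends. Windows within 2 kb had 24.3% A and 27.5% T on average. Of the 3844 peaks in place before the A limit, 966 (25.1%) held 14 to 17 A in the most A-rich 25 bases past the edge, as did 4.68% of windows, a ratio of 5.37. Those with 0 to 7 A were 641 (16.7%) of peaks and 43.2% of windows.

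The hexamer share went with the A count. It was 30.7% (27.3 to 34.4) of peaks with 0 to 7 A, 38.8% (35.6 to 42.2) with 8 to 10, 35.6% (32.5 to 38.8) with 11 to 13 and 24.7% (22.1 to 27.6) with 14 to 17. In the windows it was 6.18% at 0 to 7 A and 19.1% at 14 to 17 A. The limit removed 523 peaks, of which 13.8% (11.08 to 16.98) had a hexamer 10 to 35 bp before the edge. Priming on A-rich sequence as a part of these peaks was not tested.

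Values on both sides of each limit were close for distance. The 260 peaks in the last 100 bp inside 2 kb had a median of 15 reads and a hexamer share of 31.9%, and the 270 peaks in the first 100 bp outside it had 15 reads and 30.4%. With 16 or 17 A, 391 peaks inside the A limit had 14 reads and 21.7%, and with 18 or 19 A, 249 peaks outside it had 14 reads and 17.7%. In genes of 10 to 12 kb, 110 peaks had 14 reads and 14.5%, and in genes of 8 to 10 kb, outside the limit on length, 118 peaks had 16 reads and 23.7%.

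Motifs that match the U1 snRNP (GGTGAG or GTGAGT, which can overlap, or GGTAAG) were searched on the gene strand. They lay in the 100 bp before the edge of 245 early intronic peaks (7.38%, 6.54 to 8.32), of 8.76% (8.29 to 9.24) of peaks 2 to 10 kb from the start, and in 5.78% (5.68 to 5.89) of windows within 2 kb. Between the gene's start and the edge, 2619 peaks (78.9%) had at least 1 motif, with a median of 1 (quartiles 1 and 2), the first intron's own splice site included. From the last of them to the edge was a median of 611 bp (quartiles 253 and 1055). No stretches of other genes were searched in the same way, so the 78.9% and 611 bp are not read as traits of the peaks.

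The 20 tallest early intronic peaks had 54 to 81 reads, and 19 of them lay in intron 1. A hexamer started 10 to 35 bp before the edge in 4, stood elsewhere in the 100 bp in 6 and was absent from 10. They belong to genes of varied function, and 16 of the 20 were taller than the tallest peak at any annotated end of their gene. The 20 were picked for their height, which favours this. Over all 2615 detected genes with an early peak, the early peak was the taller in 550 (21.0%). In EDEM3, ELAVL3, GTF2A1, FKBP7 and TIMP2 no peak lay at the canonical transcript's end, so their tallest end peak was at another annotated end.

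LRATD1, a gene with an LRAT domain, had the tallest, with 81 reads 327 bp from the start (chr2:14632978-14633111), over a background of 26.0 reads, and 88 reads at its tallest transcript-end peak. EDEM3, which trims mannose from misfolded glycoproteins in the endoplasmic reticulum, had 72 reads at 1788 bp (chr1:184752886-184753361) over a background of 3.15, and 24 reads at its ends. CALM2, a gene for the calcium sensor calmodulin, had 70 reads at 1714 bp and 63 at its ends. Relative to their own ends, these stood at 0.920, 3 and 1.11 times the reads.

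Genes of the cell cycle and of genome maintenance were among the tallest. TOP2A, topoisomerase II alpha, had 67 reads at 996 bp (chr17:40416823-40416981) and 57 at its ends. CDK6, a kinase of the G1 phase, had 61 reads at 339 bp (chr7:92836030-92836329) and 59 at its ends. CCNI, cyclin I, had 60 reads at 1888 bp (chr4:77073790-77074925) and 60 at its ends. In these 3 the early peak and the tallest end peak were at most 10 reads apart. At the end of the canonical transcript TOP2A had 32 reads, CDK6 59 and CCNI 25. ETAA1, an activator of the ATR checkpoint kinase, had 63 reads at 773 bp (chr2:67397976-67398222) and 25 at its ends. The CCNI and ETAA1 peaks also reached an exon or a transcript-end window.

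RNA-binding proteins formed another set. ELAVL3 and ELAVL2, neuronal proteins of the Hu family that bind AU-rich RNA, had 66 reads at 1682 bp (chr19:11478900-11479456) and 60 reads at 1710 bp (chr9:23824302-23824619). Their tallest ends had 42 and 38 reads. IGF2BP1, an oncofetal mRNA-binding protein, had 60 reads at 1961 bp in intron 2 (chr17:48999287-48999428), over a background of 15.8, and 31 at its ends. NCL, nucleolin, had 57 reads at 1165 bp (chr2:231463234-231463391) and 73 at its ends. NCL was like TOP2A in that the summit lay at the far end of the intron, 1016 bp into 1019 bp, and the 3′ edge lay in an exon.

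GTF2A1, HDAC4 and TFAP4 act in transcription and had early peaks taller than their ends. GTF2A1, which encodes the large subunits of TFIIA, had 62 reads at 1290 bp (chr14:81219553-81220036) and 16 at its ends, 3.88 times. HDAC4, a class IIa histone deacetylase, had 54 reads at 1147 bp (chr2:239399816-239399948) and 17 at its ends, 3.18 times. TFAP4, a helix-loop-helix factor, had 57 reads at 1627 bp (chr16:4271240-4271484) and 32 at its ends. The ratio for GTF2A1 was the highest of the 20. Other genes that act in transcription had early peaks below their ends, among them SETD1B (45 and 48 reads), KLF7 (47 and 52) and BRD3 (31 and 48). The 3′ edge of the SETD1B peak lay in an exon.

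The others work in transport, signalling and secretion. RTN4, which encodes Nogo, had 65 reads at 1552 bp (chr2:55048778-55048985) and 33 at its ends. KPNA5, an importin alpha, had 57 reads at 883 bp (chr6:116682012-116682328) over a background of 1.69, and 20 at its ends. FKBP7, a prolyl isomerase of the endoplasmic reticulum, had 63 reads at 493 bp (chr2:178478025-178478205) and 26 at its ends. At FKBP7 the hexamer at 10 to 35 bp was on the opposite strand. WSB1, a SOCS box protein of a ubiquitin ligase, had 54 reads at 1391 bp (chr17:27294982-27295594) with 17 A in 25 bases past the edge, the most the limit allows, and 25 reads at its ends. GNAS, the stimulatory G protein alpha subunit, had 55 reads at 1273 bp (chr20:58892616-58892993) and 85 at its ends. TIMP2, an inhibitor of metalloproteinases, had 54 reads at 1852 bp (chr17:78923476-78923694) over a background of 16.8, and 31 at its ends. GNAS, LRATD1 and NCL were the genes of the 20 whose end was taller.

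**Figure D4:**
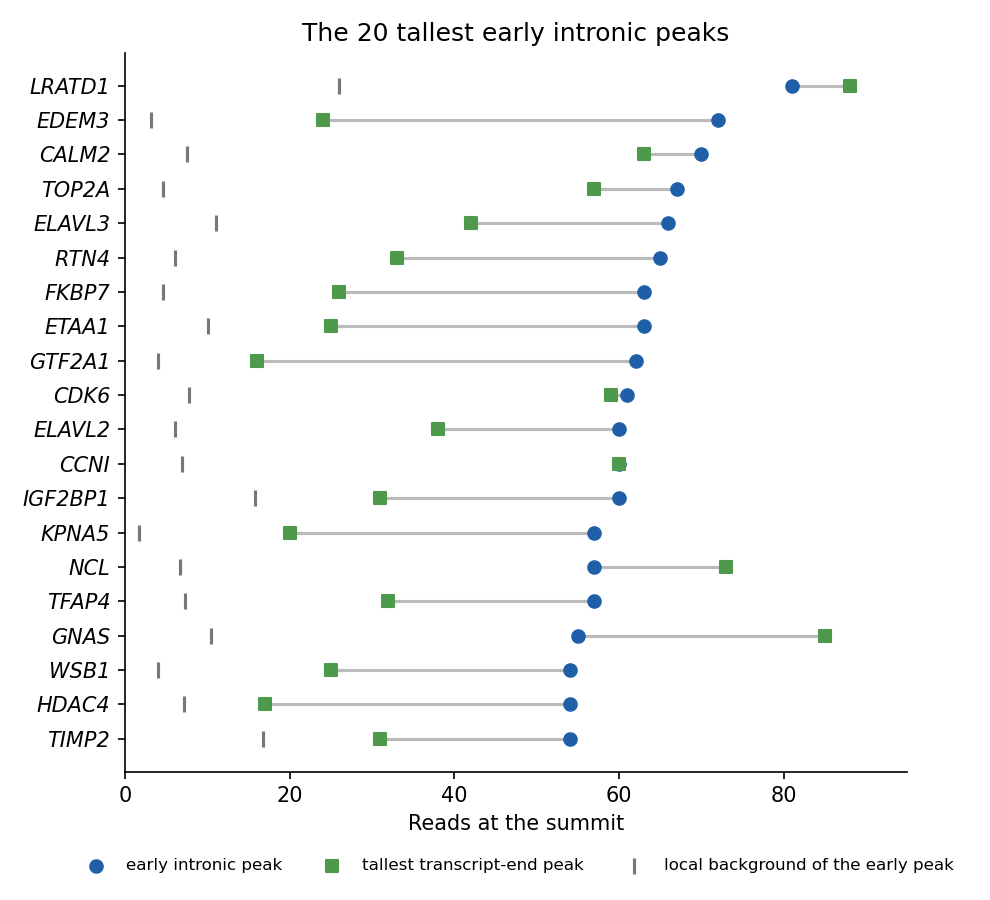
Reads at the summit (horizontal axis) of the 20 tallest early intronic peaks (circles), of the tallest peak at any annotated transcript end of the same gene (squares) and the local background of the early peak (ticks), with 1 gene per line. In 16 genes the circle lies to the right of the square, and in CCNI both lie at 60 reads. The genes were picked for the height of the circle, and over all detected genes with an early peak it was the taller in 21.0%.

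Several genes held more than 1 early intronic peak. There were 2338 genes with 1, 437 with 2, 31 with 3 and 4 with 4. LMO4, a LIM-only cofactor, had 36, 33, 49 and 32 reads at 467, 902, 1422 and 1829 bp. LANCL1, a glutathione-binding protein, had 25, 29, 23 and 22 reads at 925, 1371, 1627 and 1889 bp in intron 2, the second and the last with AATAAA 24 and 15 bp before the edge. GRIN2C, an NMDA receptor subunit, had 33, 24, 22 and 34 reads at 520, 1140, 1420 and 1857 bp. In each of these genes the tallest was under 2 times the lowest.

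TPTEP2-CSNK1E, a readthrough gene that includes casein kinase 1 epsilon and overlaps it, had 20, 33, 24 and 17 reads at 505, 865, 1399 and 1644 bp. Its peak at 865 bp reached an exon or a transcript-end window. ZNF766, a zinc finger gene, came next with 44, 46 and 24 reads at 643, 1106 and 1763 bp, against 18 reads at its ends.

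Genes with an annotated end in use held early intronic peaks more often than genes without. An early intronic peak was present in 18.9% of all 14900 protein-coding genes over 10 kb and in 23.7% of the 11056 detected ones, those with a peak at an annotated transcript end (2615 genes, Wilson interval 22.9 to 24.5). Of the 3844 genes not detected, 195 (5.07%, 4.42 to 5.81) had one. In the 2615 genes the tallest early peak had a median of 15 reads and the tallest end a median of 25 reads. Their ratio had a median of 0.625 (quartiles 0.434 and 0.938). The early peak was the taller in 550 genes (21.0%, 19.5 to 22.6) and at least 2 times as tall in 106. Against the end of the canonical transcript alone, in the 2148 genes with a peak there, it was the taller in 28.3%. With the ceiling on height given above, the ratio would be overstated most where the ends are tall.

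Genes with the fewest transcript-end reads held early peaks less often. An early peak was present in 18.7% (17.3 to 20.2) of the quartile of detected genes with the fewest reads at the tallest end (3 to 16). The next quartiles had 25.3% (23.7 to 26.9), 24.7% (23.2 to 26.4) and 25.9% (24.3 to 27.5), with overlapping intervals. Because of the ceiling, end height may separate the upper quartiles poorly by output. The highest quartile was 7.16 points above the lowest (4.97 to 9.35).

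Gene length made a small difference. The shortest quartile (median 15.96 kb) had an early peak in 20.8% (19.3 to 22.3) of genes, and the others (medians 33.6, 67.7 and 178 kb) in 24.5% (22.96 to 26.17), 24.96% (23.39 to 26.61) and 24.3% (22.8 to 26.0). The shortest quartile also had fewer eligible bases within 2 kb, a median of 1449 against 1584 to 1613.5.

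Genes with GC-rich starts held early peaks less often. By the GC content of the first 2 kb, the shares were 27.2% (25.6 to 28.9), 26.0% (24.4 to 27.6), 23.5% (21.9 to 25.1) and 17.9% (16.6 to 19.4) from the lowest quartile (mean 43.5%) to the highest (mean 63.1%). Highest minus lowest was −9.26 points (−11.4 to −7.07). By eligible bases, the quartile with the fewest (median 712) had 11.6% (10.5 to 12.9) and the others had 27.2%, 27.3% and 28.5%.

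Genes with an early peak also held more intronic peaks further in on average. In the shortest quartile of genes, those with an early peak had 1.45 ± 1.34 intronic peaks beyond 2 kb (SD over 574 genes) and those without had 1.05 ± 1.23 (2190 genes). In the longest quartile the numbers were 17.98 ± 15.26 (673 genes) and 14.7 ± 15.3 (2091 genes). The spread between genes was larger than these differences. At least 1 such peak was present in 70.9% and 56.4% of the shortest genes, and in 98.8% and 93.2% of the longest.

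Genes that the study discusses by name varied. BRCA1, of homologous recombination, had 1 early intronic peak, with 14 reads 1684 bp from the start in intron 2 (chr17:43123632-43123751) and AATAAA 32 bp before the edge. BLM, the Bloom syndrome helicase, had 1 with 8 reads at 1361 bp in intron 1 (chr15:90718682-90718781) and no hexamer in the 100 bp. BARD1, the partner of BRCA1, had its first intronic peak past the window, at 2167 bp (chr2:214807493-214807599) with 11 reads. PCF11, a factor of cleavage and termination, had its first at 2683 bp (chr11:83159717-83160008) with 59 reads. MYCN is 6.46 kb long and so could hold none by the rule, though a peak of 114 reads lay in its intron 915 bp from the start. With no strand in the list those reads cannot be assigned to MYCN, and its locus is amplified in this line. BRCA1 and BLM are thus among the members, and both peaks were below the median height.

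Lists of genes were read against the 23.7% of all detected genes, with no test of a list. DNA damage response (DDR) genes, from the study's own list, had an early intronic peak in 48 of 127 (37.8%, 29.8 to 46.5) and other detected genes in 23.5% (22.7 to 24.3). The median peak in DDR genes had 16 reads, and 27.9% had a hexamer 10 to 35 bp before the edge, against 15 reads and 32.3% over all early intronic peaks. The tallest were in XPC, which recognises lesions for nucleotide excision repair (38 reads at 1490 bp, 26 at its ends), MSH4, a meiotic homologue of mismatch repair proteins (36 reads at 1009 bp, 8 at its ends), and CDKN1A, which encodes p21 (35 reads at 1594 bp, 58 at its ends). From the lowest to the highest quartile of transcript-end reads, DDR genes had one in 5 of 15, 10 of 25, 15 of 41 and 18 of 46, or 33.3%, 40%, 36.6% and 39.1%. Other genes of these quartiles had 18.6%, 25.2%, 24.6% and 25.6%. The interval overlapped that of other genes in all 4 quartiles (15.2 to 58.3 against 17.2 to 20.1 in the lowest), and that of the difference included 0 in the lowest 3, with lower bounds of −3.51, −1.83 and −1.08 points. By gene length the DDR shares were 22.2%, 42.9%, 36.6% and 50% from the shortest quartile to the longest, with wide intervals (10.6 to 40.8 in the shortest). The differences from other genes were 1.47 points (−10.2 to 20.1), 18.6 (3.60 to 34.9), 11.8 (−1.30 to 27.2) and 25.9 (7.23 to 44.5). In quartiles 1 and 3 the interval included 0. The first 2 kb of DDR genes had a mean GC of 49.3%, against 52.9% in other genes. DDR genes also had a median of 1370 eligible bases there, against 1573, and a median first intron of 2.18 kb, against 6.07 kb. The part of these traits in the shares was not tested.

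Genes of premature cleavage and polyadenylation (PCPA), which the study called from nascent RNA of cells given THZ531, had an early intronic peak in 241 of 757 (31.8%, 28.6 to 35.2), and other detected genes in 23.1% (22.2 to 23.9). The study chose this list on related samples, so it is not independent evidence of where its genes end. The median peak had 17 reads and the hexamer share was 30.8%. The tallest were in LRATD1, ELAVL3 and GTF2A1, described above. By quartiles of transcript-end reads PCPA genes had 32.4%, 30.6%, 27.2% and 38.5%, and other genes 18.1%, 24.8%, 24.5% and 24.9%. In quartiles 2 and 3 the intervals overlapped those of other genes. Mean GC of the first 2 kb was 51.0% in PCPA genes and 53.0% in other genes, and its part in the shares was not tested. PCPA genes were longer, with a median of 63.0 kb against 46.1 kb. By length quartile they stood 13.05 points (4.51 to 22.8) and 17.2 points (10.1 to 24.5) above other genes in the 2 shorter quartiles. In the 2 longer ones the difference was 2.93 points (−2.37 to 8.81) and 4.71 points (−1.33 to 11.5), with intervals that included 0.

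Lists that handle RNA were near the share of all detected genes. Cleavage, polyadenylation and termination factors had an early peak in 12 of 42 (28.6%, 17.2 to 43.6). RBBP6, a subunit of the cleavage complex, had 41 reads at 1562 bp and 53 at its ends. INTS3, of the Integrator complex, had 39 reads at 1287 bp and 27 at its ends. CPSF6, of cleavage factor I, had 31 reads at 1000 bp and 38 at its ends. Splicing factors had one in 20 of 81 (24.7%, 16.6 to 35.1), with 29 reads in HNRNPU, 25 in RBM39 and 22 in SRSF10, where the ends had 83, 52 and 39. The SRSF10 peak reached an exon or a transcript-end window. Transcriptional CDKs and elongation factors had one in 10 of 44 (22.7%, 12.8 to 36.99). The tallest there were IWS1, which binds the elongation factor SPT6 (32 reads, ATTAAA 15 bp before the edge), BRD3, a BET protein (31 reads), and MLLT3, of the super elongation complex (26 reads).

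Chromatin, ubiquitin and signalling lists gave shares from 26.3% to 30.8%. Chromatin regulators had an early peak in 24 of 88 (27.3%, 19.1 to 37.4), with 54 reads in HDAC4, 45 in SETD1B, an H3K4 methyltransferase, and 44 in BPTF, of the NURF remodeller. Ubiquitin ligases and deubiquitinases had one in 20 of 76 (26.3%, 17.7 to 37.2), with 42 reads in USP22, of the SAGA complex, 37 in ITCH, a HECT ligase, and 26 in USP32. Kinases and phosphatases of growth signalling had one in 24 of 78 (30.8%, 21.6 to 41.7), with 35 reads in CSNK1D, casein kinase 1 delta, and 32 in MAP2K4, upstream of JNK. The interval of each list included the share of all detected genes.

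Neuronal and neuroblastoma genes had an early peak in 19 of 70 (27.1%, 18.1 to 38.5), and their early peaks had the highest median of the lists, 21 reads. After ELAVL3 and ELAVL2, KLF7, a Krüppel-like factor, was the next tallest with 47 reads at 1008 bp over a background of 12.3. Cell cycle genes had one in 26 of 70 (37.1%, 26.8 to 48.9). Their median was 15 reads, 18.2% had a hexamer 10 to 35 bp before the edge, and CDK6 (61 reads), CDKN1A (35) and E2F3 (32), a transcription factor of S phase entry, were the tallest. ZNF zinc finger genes had one in 122 of 395 (30.9%, 26.5 to 35.6), with a median of 16 reads and 46 reads in ZNF766, 40 in ZNF146 and 38 in ZNF431. The lower bounds of DDR, PCPA, cell cycle and ZNF genes lay above 23.7%, and these lists were chosen with results of these data known. Lists share genes, such as CDKN1A in the DDR and cell cycle lists.

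**Figure D5:**
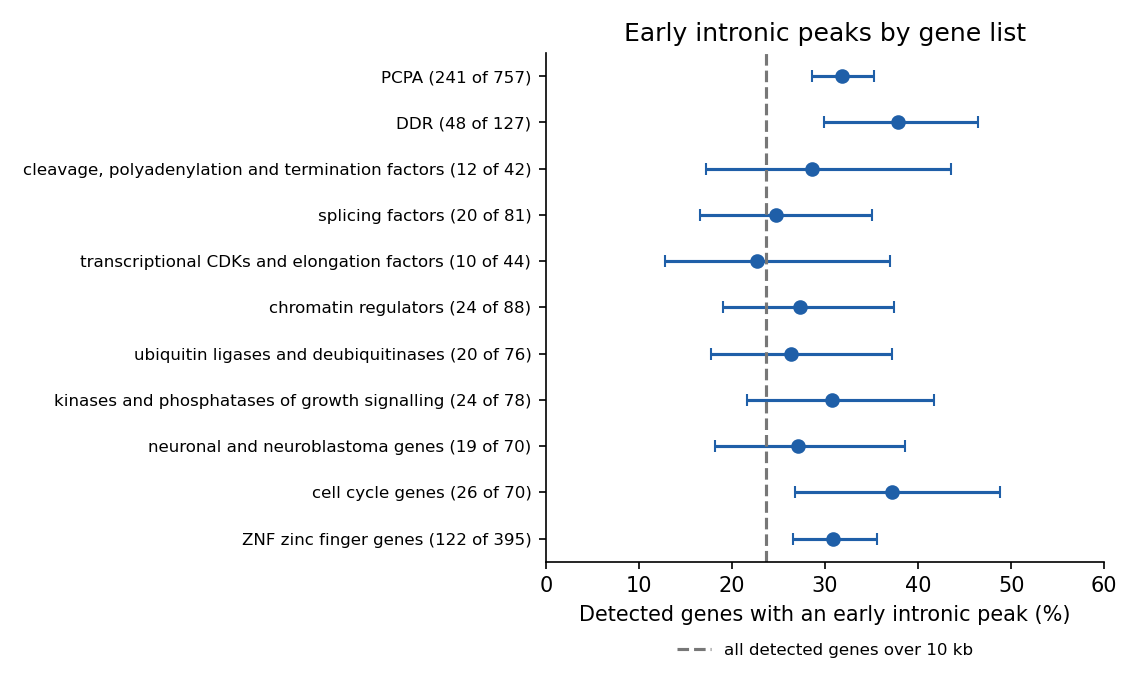
Share of detected genes over 10 kb with an early intronic peak (horizontal axis, percent) in each gene list, with 95% Wilson intervals and, beside each name, the number of genes with a peak and of detected genes. The dashed line is the share of all detected genes, 23.7%, and the intervals of the PCPA, DDR, cell cycle and ZNF lists lie to its right.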

How the data were processed

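QuantSeq 3′ libraries were made from 6 IMR-32 samples. After trimming, the authors aligned the reads to GRCh38 with STAR 2.5.1b, pooled the samples (assumed to be these 6) and ran MACS2 2.1.1 once, with reads extended to 100 bp and no control. The deposited list gives each peak a fold enrichment (a ratio) and −log10 p-values and q-values. Reads at the summit were solved from the fold and −log10 p (largest misfit 0.000172). If the peak caller's default was kept, reads with the same start count once, and the highest peak has 200. The depth of each library is unknown.

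Peaks on 24 chromosomes were placed on Gencode release 44 (the study used 27). Intronic sequence under the same position limits, in 100 bp windows, served as background. Shares have Wilson intervals and differences Newcombe intervals (statsmodels 0.14.6, scipy 1.17.1), which treat peaks as independent. No test across samples was possible. The finders were tested on simulated data. DDR genes (150 of 162 entries) and PCPA genes (803 of 809) were matched to annotation. The members and lists were chosen with earlier results of these data known. Named are the 20 tallest peaks, the 5 genes with most, the 3 tallest of each list and 5 genes of the study. A few items these rules name are not reported here. Alternatives changed cutoffs, the A limit, starts, windows, hexamers and detection.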

Additional observations from a re-analysis of the deposited data

Results flagged for a closer look

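Outside the 24 chromosomes, 423 peaks lay on 44 unplaced or mitochondrial sequences, 10 of them mitochondrial, with 3 to 200 reads at the summit (median 10). No comparison used them, and the list has no control sample to set them against. With all libraries merged, no group of samples could be searched for outlying samples.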

How the results depend on the processing

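No paired analysis was possible because peaks were called on merged reads, with no value per library, so no library could be left out either. The difference in hexamer share between the gene strand and the opposite strand stayed above 0 under all 11 of its alternatives. The share 10 to 35 bp before the edge, early minus 2 to 10 kb, stayed below 0, but with fewer than 14 A allowed in 25 bases, an alternative added after the data were seen, it was −2.07 points and its interval included 0. The density ratio was 0.798 with 2 to 4 kb as the comparison, and 1.48 with −log10 q of at least 20, 1.09 with fewer than 22 A, 1.07 with no A limit and 1.23 with fewer than 14 A. There were 150 peaks at −log10 q of at least 20, 796 with a window of 1 kb and 5899 with 3 kb.

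Keeping peaks with −log10 q of 5 or more gave a median of 17 reads, and of them 56.9% had a hexamer, 35.2% had one 10 to 35 bp before the edge, and 18.9% of detected genes and 26.5% of PCPA genes had an early peak. At 20 or more these were 36 reads, 68%, 38.7%, 1.30% and 2.71%, and 0 of 72 detected DDR genes had one, which allows up to 4.17% (3 genes of 72; the Wilson upper bound is 5.07%). With fewer than 22 A or no limit, any hexamer was at 51.2% and 50.5%, one at 10 to 35 bp at 30.3% and 29.8%, and early peaks were in 26.3% and 26.9% of genes. With fewer than 14 A, 35.4% had one at 10 to 35 bp, and 17.3% of genes and 23.9% of PCPA genes had a peak. The share of genes was 21.4% with the most upstream start, 22.1% with the whole peak outside exons and transcript-end windows, and 22.5% with summits under genes of 1 strand. AATAAA alone gave 24.5% (16.05% at 10 to 35 bp), and with ATTAAA 31.5% (20.1%). A hexamer window ending at the summit gave 31.0%, near the 29.9% of all 100 bp windows within 2 kb, and one of 50 bp gave 41.5%. The other 71 values kept their side of 0, stayed within the interval of the value reported or, for counts, within 1.5 times. Beyond what each alternative leaves out, the cause of a change was not tested.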
